A study of Mus musculus with 12 samples.

Results

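Claudins are the membrane proteins that close the gap between neighbouring epithelial cells. Peaks of 4 histone marks were collected here over 10 claudin genes in crypts and villi of the mouse small intestine. The members were chosen as a gene family, with earlier results of these data known, and they are 10 of the 21853 protein-coding genes of the annotation. Cldn3, Cldn4, Cldn7, Cldn12, Cldn15 and Cldn23 are called gut claudins below, and Cldn1, Cldn5, Cldn8 and Cldn18 claudins of other tissues, although Cldn8 is also known from the colon. For each gene the called peaks over the gene body and 5 kb on either side of it, its window, were collected from 8 peak lists on mm10 (GRCm38).

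The series asked how the cleavage of histone H3 tails in the intestinal epithelium relates to the H3 marks of crypts and villi, and holds 12 libraries, 6 per compartment, of which 1 in each is the input and the others are ChIP-Rx. In ChIP-Rx, foreign chromatin is mixed into every sample before the precipitation as a yardstick, here 5% from Drosophila S2 cells in both compartments. According to the methods, villi were scraped from the opened small intestine and crypts were released from the remaining tissue with EDTA, and no sorting of epithelial cells is named. Strain, age, sex and the number of animals are not given in the sources used here. Each compartment and mark has 1 library, so that differences between crypts and villi rest on single libraries, are given without a replicate check and without any test. The lists hold no read counts, the depth of the libraries is unknown, and the score of a peak, taken as its −log10 p-value, was used only to rank peaks within their own list.

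In a tight junction, claudins of neighbouring cells bind each other and form strands. Some claudins seal the strand, and others form pores for particular ions, so the set of claudins in a cell sets what its epithelium lets through. At histone H3, trimethylation of lysine 4 (H3K4me3) is known at start sites of genes that are active or ready to be, monomethylation of the same lysine (H3K4me1) at enhancers and at the flanks of such start sites, and H3K27me3 at genes held silent by Polycomb. H3K9me3 marks compact, repeat-rich chromatin.

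The promoters of 6 claudins are given to cover the range of calls found over the family, from wide H3K4me3 (Cldn3 and Cldn15) and H3K4me3 of ordinary width (Cldn4 and Cldn12) to H3K27me3 (Cldn5) and no mark (Cldn1). They run from 250 bases before to 30 bases after a start site, 5′ to 3′ on the strand of the gene, as RefSeq gives them on GRCm38.p6. Capitals mark each CpG, the dinucleotide that is dense in the promoters known as CpG islands. The Cldn3 promoter is at chr5:134985964-134986243 on the plus strand and that of its neighbour Cldn4 at chr5:134946905-134947184 on the minus strand. The Cldn15 promoter is at chr5:136967619-136967898 (plus) and that of Cldn12 at chr5:5514760-5515039 (minus). Those of Cldn5 and Cldn1 are at chr16:18776597-18776876 (plus) and chr16:26371810-26372089 (minus).
Cldn3: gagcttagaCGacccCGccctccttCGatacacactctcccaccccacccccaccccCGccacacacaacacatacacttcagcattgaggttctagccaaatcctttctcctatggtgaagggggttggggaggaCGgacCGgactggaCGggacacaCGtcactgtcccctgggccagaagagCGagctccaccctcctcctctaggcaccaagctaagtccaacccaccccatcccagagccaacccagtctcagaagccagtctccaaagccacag
Cldn4: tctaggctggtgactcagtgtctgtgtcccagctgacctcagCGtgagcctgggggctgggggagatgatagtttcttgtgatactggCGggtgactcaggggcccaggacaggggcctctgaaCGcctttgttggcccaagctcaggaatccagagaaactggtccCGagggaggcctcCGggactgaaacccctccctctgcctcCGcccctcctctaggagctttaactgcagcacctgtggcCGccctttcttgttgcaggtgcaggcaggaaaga
Cldn15: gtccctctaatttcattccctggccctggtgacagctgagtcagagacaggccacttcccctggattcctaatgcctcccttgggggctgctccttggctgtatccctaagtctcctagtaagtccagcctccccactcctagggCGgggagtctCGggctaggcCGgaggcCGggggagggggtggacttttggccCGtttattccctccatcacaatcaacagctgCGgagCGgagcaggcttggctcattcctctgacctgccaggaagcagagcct
Cldn12: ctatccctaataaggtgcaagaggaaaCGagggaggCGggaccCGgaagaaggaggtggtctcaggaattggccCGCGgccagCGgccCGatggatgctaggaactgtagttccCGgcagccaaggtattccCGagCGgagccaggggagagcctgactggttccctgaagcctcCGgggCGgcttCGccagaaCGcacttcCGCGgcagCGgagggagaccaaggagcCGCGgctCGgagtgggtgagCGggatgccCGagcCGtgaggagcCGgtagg
Cldn5: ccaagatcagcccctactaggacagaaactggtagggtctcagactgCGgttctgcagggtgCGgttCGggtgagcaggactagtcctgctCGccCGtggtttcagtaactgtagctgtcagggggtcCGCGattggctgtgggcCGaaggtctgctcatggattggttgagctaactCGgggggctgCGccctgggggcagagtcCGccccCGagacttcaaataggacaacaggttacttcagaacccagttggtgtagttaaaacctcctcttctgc
Cldn1: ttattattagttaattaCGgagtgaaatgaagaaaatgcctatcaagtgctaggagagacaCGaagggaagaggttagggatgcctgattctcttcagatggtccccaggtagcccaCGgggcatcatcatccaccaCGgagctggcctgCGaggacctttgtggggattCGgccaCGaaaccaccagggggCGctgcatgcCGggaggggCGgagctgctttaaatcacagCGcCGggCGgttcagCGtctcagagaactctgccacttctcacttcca

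Of these sequences, that of Cldn12 holds the most CpGs, those of Cldn3, Cldn4 and Cldn15 the fewest, and those of Cldn5 and Cldn1 lie between them. The counts were 9 in Cldn3, 7 in Cldn4, 7 in Cldn15, 24 in Cldn12, 12 in Cldn5 and 14 in Cldn1. Of the 10 genes, 8 were matched in the RefSeq promoter table, with 12 promoters, and Cldn8 and Cldn23 had no entry in it. Over all 32851 promoters of that table, the median was 6 CpGs (quartiles 2 and 19). They belong to 27025 genes, a larger set than the 21853 protein-coding genes behind the other shares. Shares of all promoters below refer to this table.

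H3K4me3 was called at the start sites of all 6 gut claudins in both compartments. Of the claudins of other tissues, Cldn5 and Cldn8 had such a peak in both compartments, and Cldn1 and Cldn18 had none in either. In total 8 of the 10 genes had an H3K4me3 peak in the window in crypts and 8 in villi, beside 63.2% and 63.5% of all protein-coding genes. Within 1 kb of a start site the claudin counts were again 8 and 8, beside 57.7% and 57.9% of all genes. A called peak in such a tissue can come from a part of its cells, and fewer marked cells cannot be told apart from a weaker mark in each cell.

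H3K4me1 accompanied H3K4me3 at most of these genes. A window peak was called at 8 claudins in crypts and 7 in villi, beside 69.1% and 68.8% of all genes, and a start-site peak at 7 and 7, beside 57.9% and 56.1%. Cldn12 made the difference, with a single H3K4me1 peak in crypts and none in villi.

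H3K27me3 was called over few claudins, a share close to that of all genes in crypts. It was called in the windows of Cldn4 and Cldn5 in crypts and of Cldn5 alone in villi, which is 2 and 1 of 10 genes, beside 17.9% and 23.0% of all genes. The same genes had it within 1 kb of a start site, beside 13.1% and 16.1%. None of the 10 windows held an H3K9me3 peak, which 3.89% of all genes had in crypts and 3.11% in villi, and 0.38% and 0.311% within 1 kb of a start site. The windows of the 10 genes had a median of 12731.5 bp (11259 to 37807 bp), against 27380 bp over all genes, and a longer window has more room for a peak. Those of Cldn12 and Cldn18 were longer than the median of all genes.

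**Figure D1:**
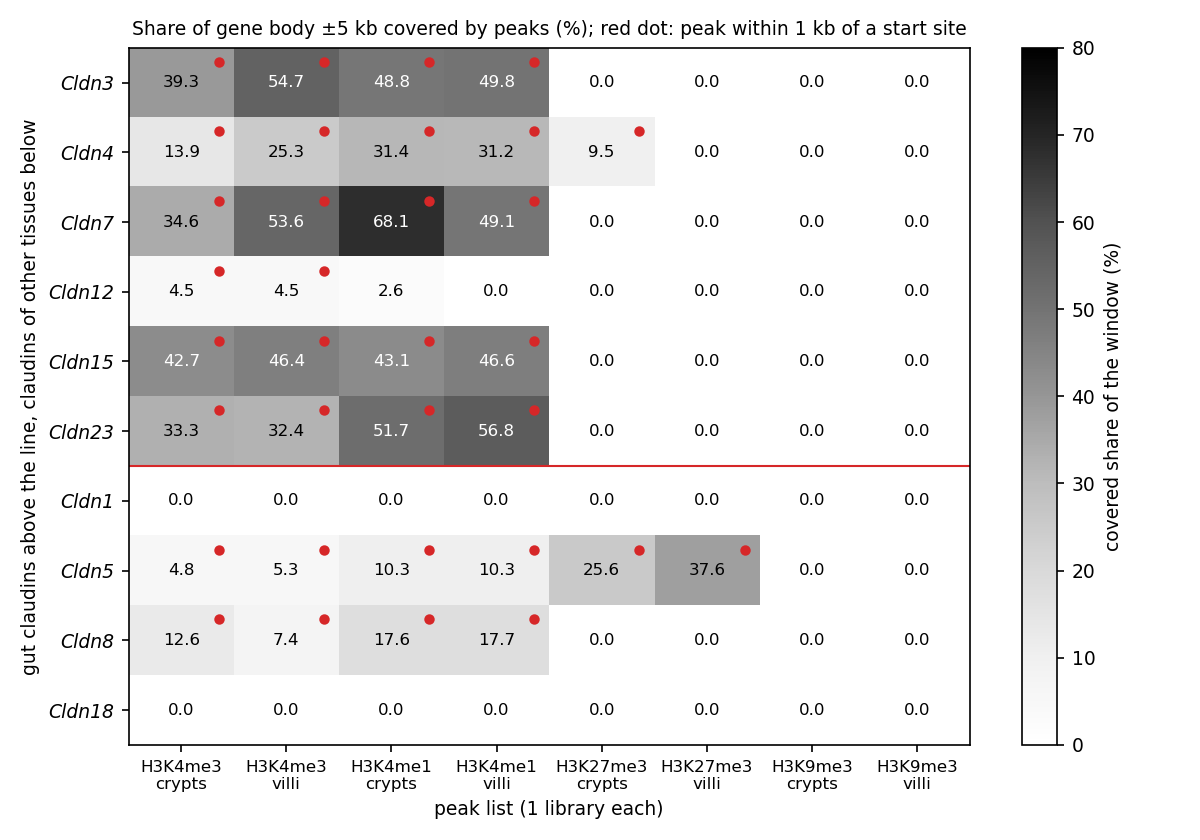
Share of each claudin window (rows, gene body and 5 kb on either side) covered by called peaks, in %, for the 8 lists (columns, 1 library each), with red dots where a peak lies within 1 kb of a start site. The 6 gut claudins above the line have H3K4me3 in both compartments, covering 4.47% of the window (Cldn12, villi) to 54.7% (Cldn3, villi), and Cldn1 and Cldn18 have no peak.

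Cldn3, Cldn7, Cldn15 and Cldn23 had wide H3K4me3 peaks in both compartments. Across all genes with a start-site peak, the widest one had a median width of 1968 bp in crypts (quartiles 1429 and 2654 bp, 12613 genes) and 1871 bp in villi (1354 and 2607 bp, 12658 genes). Cldn3, on chromosome 5 from 134986214 to 134987472, encodes a sealing claudin of the intestinal epithelium and is a gene of 1 exon. Its peak spanned 4423 bp in crypts and 5274 bp in villi, wider than in 95.8% and 97.1% of genes. It reached beyond both ends of the gene, from position -314 to 4108 relative to the start site in the crypts list, and in the villi list from -967 to 4306. By score it was within the top 15.3% of the crypts list and the top 1.35% of the villi list.

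Cldn7, on chromosome 11 from 69964779 to 69967885, encodes a claudin of the lateral membrane and tight junction. Its H3K4me3 peak covered the whole gene in both compartments and spanned 4540 bp in crypts and 5620 bp in villi. It had the highest rank among the claudins in both lists, the top 1.47% in crypts and the top 0.336% in villi. Cldn15, on chromosome 5 from 136966616 to 136975858, encodes a sodium pore of the villi. In crypts its 2 annotated start sites lay under separate peaks of 2150 bp and 4413 bp, and in villi 1 peak of 7284 bp covered both sites, wider than in 99.2% of genes. Its rank was the top 17.6% in crypts and the top 2.99% in villi. Cldn23, on chromosome 8 from 35824712 to 35826559, encodes a claudin of the gastrointestinal surface epithelium. Its peak spanned 3947 bp in crypts and 3842 bp in villi, within the top 19.1% and 15% of the lists.

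Cldn4 and Cldn12 had peaks of ordinary width. Cldn4, on chromosome 5 from 134945119 to 134946934, encodes a sealing claudin of simple epithelia. Its peak spanned 1637 bp in crypts and 2392 bp in villi, wider than in 34.6% and 69.1% of genes, and the rank was low in both lists, the top 70.1% and 60.9%. Relative to the start site it began at -248 bp in villi and at -38 bp in crypts, so that 24.3% of the promoter printed above was covered in crypts and 99.3% in villi. Cldn12, on chromosome 5 from 5489537 to 5514958, encodes a widely expressed claudin. Its peak was nearly the same in both compartments, with 1592 bp and 1582 bp and the top 27% and 28.3% of the lists. In both lists it ranked above the Cldn4 peak.

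Of the claudins of other tissues, the 2 with H3K4me3 had low-ranked peaks, narrow at Cldn5 in both compartments and at Cldn8 in villi. Cldn8, on chromosome 16 from 88560828 to 88563183, encodes a claudin of kidney tubules and colon. Its peak spanned 1554 bp in crypts and 918 bp in villi, wider than in 30.4% and 9.38% of genes, in the top 69.5% and 83.0% of the lists. Cldn5, on chromosome 16 from 18776847 to 18778262, encodes the main claudin of blood vessel endothelium. Its width was 544 bp in crypts and 609 bp in villi, wider than in 1.78% and 3.15% of genes, and lay in the top 89.1% and 95.8% of the lists. In both compartments it began after the start site, by 493 bp in crypts and 377 bp in villi, inside the single exon.

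**Figure D2:**
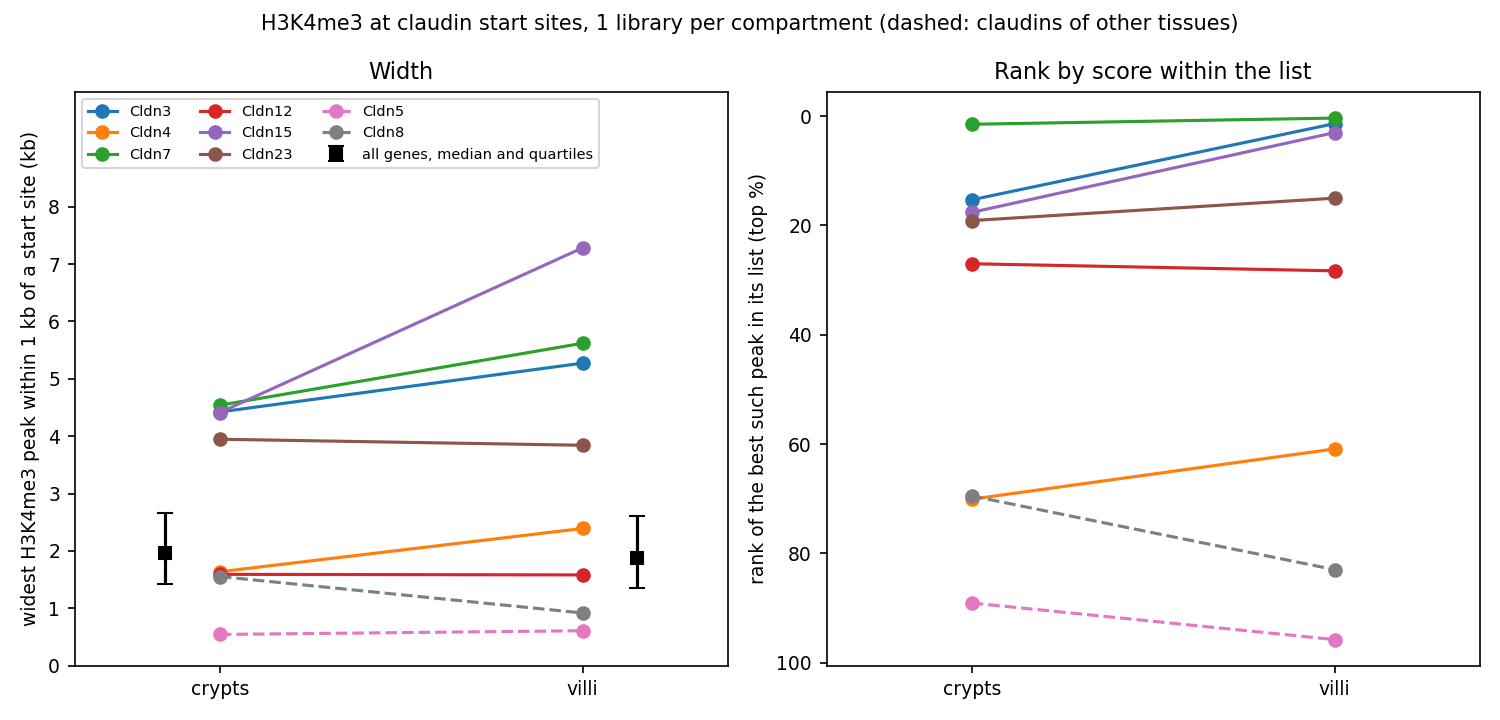
Left, width in kb of the widest H3K4me3 peak within 1 kb of a start site in crypts and villi for 8 claudins, with the median and quartiles over all genes as black squares and bars. Right, rank of the best such peak in its own list (top %, axis reversed so that high scores are at the top). Solid lines are gut claudins and dashed lines claudins of other tissues, and each point is 1 library. Cldn3 and Cldn15 stand in the top 1.35% and 2.99% of the villi list, and Cldn5 and Cldn8 rank lower in villi than in crypts.

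The rank of H3K4me3 was nearer to the top of the list in villi than in crypts at 5 of the 6 gut claudins and at neither of Cldn5 and Cldn8. Among all genes with the peak in both compartments, 53.2% of 12381 were nearer to the top in villi. The difference in rank was 14.0 percentage points for Cldn3, 14.6 for Cldn15, 9.2 for Cldn4, 4.08 for Cldn23 and 1.13 for Cldn7, and Cldn12 stood at -1.37. The median of the 6 genes was 6.64 points, against 0.642 over all genes (quartiles -5.58 and 6.95). Cldn5 and Cldn8 stood at -6.67 and -13.4 points. The villi markers Apoa1, Alpi, Fabp2 and Sis, genes of absorptive enterocytes, were all nearer to the top in villi, with a median of 22.7 points, and the 17 junction partners described below had a median of 1.27 points over the 16 with the peak. Each rank is relative to the other peaks of its own list, and a higher rank is not a higher score. At Cldn7 the score was 594.0 in crypts and 486.1 in villi, and at Cldn23 376.1 and 292.5, while both ranked nearer to the top in villi. These differences describe the 2 lists and do not show a change of the mark at a gene.

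The same measure was used to check the labels of the compartments. The stem cell genes Lgr5 and Ascl2 stood at -21.5 and -5.92 points, opposite to the villi markers. Olfm4, also a stem cell gene, had H3K4me3 at its start site in crypts only. Lyz1, which encodes the lysozyme of Paneth cells, had no H3K4me3 in either compartment.

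The length covered by H3K4me3 in the window put Cldn4, Cldn7 and Cldn3 highest. The values are log2 ratios of covered bp, villi over crypts, for which the median over all 13563 genes with both was -0.04. Cldn4 had the highest ratio of the 10 genes, from 1637 bp to 2987 bp (0.87). It was followed by Cldn7, from 4540 bp to 7026 bp (0.63), and by Cldn3, from 4423 bp to 6163 bp (0.48). Cldn15, Cldn12 and Cldn23 changed little (0.12, -0.01 and -0.04), as did Cldn5 (0.16), and Cldn8 had the lowest ratio, from 1554 bp to 918 bp (-0.76). Cldn4 and Cldn7 were thus at least 1.5-fold higher in villi, which 4.2% of all genes were, and Cldn8 at least 1.5-fold lower, which 3.37% were. With 1 kb of flank in place of 5 kb, the ratio was 0.55 for Cldn4 and 0.15 for Cldn7, both under 1.5-fold, and Cldn8 stayed at -0.76.

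Part of the length gained in villi lay in separate upstream peaks of low rank. The villi list held a further H3K4me3 peak of 595 bp at 4289 bp before the start site of Cldn4 (top 75.1%). It also held 1 of 1406 bp at 2767 bp before Cldn7 (top 85.8%) and 1 of 1242 bp at 4112 bp before Cldn3 (top 96.9%), and the crypts list had none of the 3. With the start-site peaks alone, an alternative added after the data were seen, the ratios were 0.55 for Cldn4, 0.31 for Cldn7, 0.25 for Cldn3 and 0.15 for Cldn15, and no claudin was 1.5-fold higher in villi. Cldn8 remained at -0.76. In the Cldn15 window, 1 of the H3K4me3 peaks of each list lies on a start site of the neighbouring gene Fis1.

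**Figure D3:**
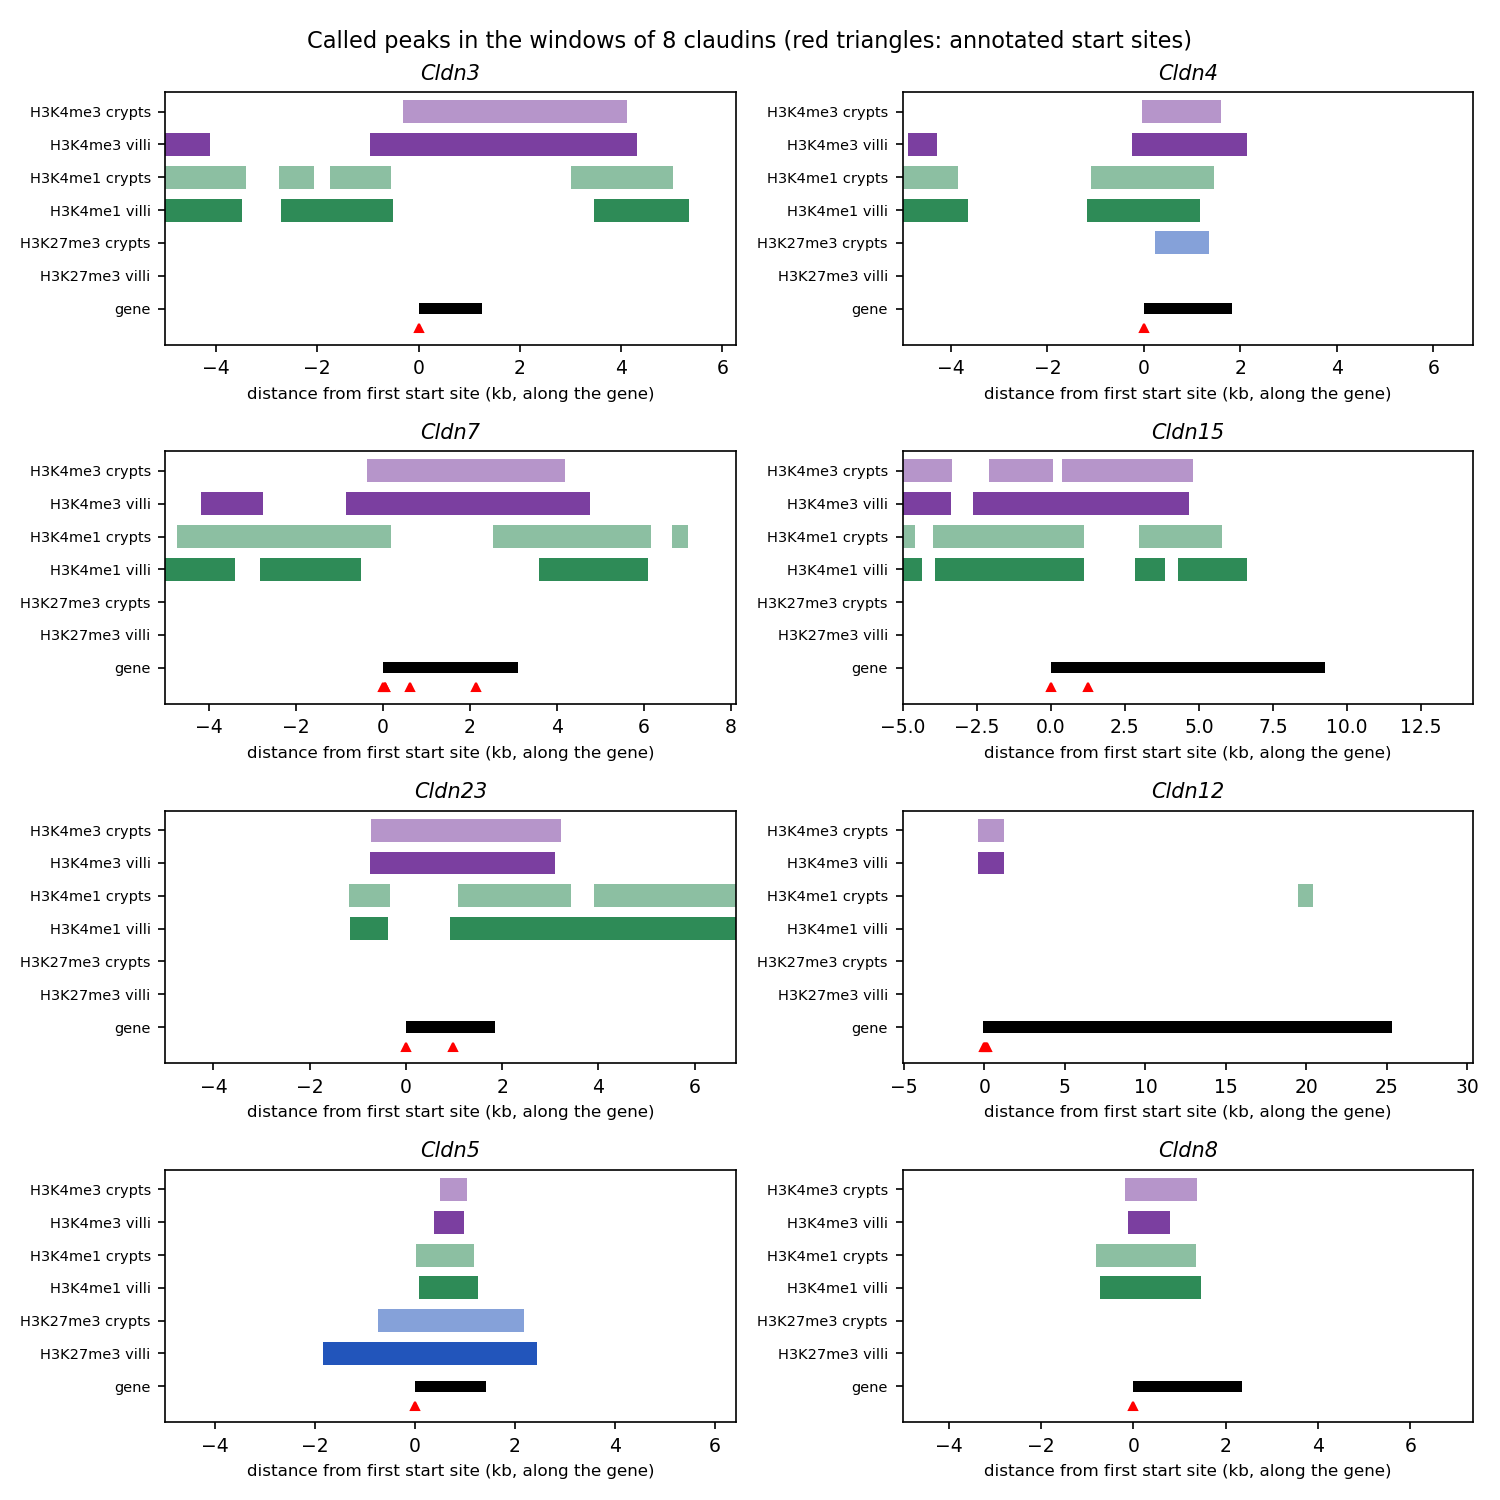
Called peaks of H3K4me3 (purple), H3K4me1 (green) and H3K27me3 (blue) over 8 claudin windows, drawn to scale as distance in kb from the start site that comes first along the gene, with light colours for crypts and dark for villi. Black bars are gene bodies and red triangles annotated start sites. H3K4me3 fills the middle of the Cldn3, Cldn7, Cldn15 and Cldn23 maps. H3K4me1 lies mostly beside it at Cldn3 and Cldn7, overlies most of it at Cldn15 and Cldn23 and nearly all of it at Cldn5 and Cldn8.

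H3K4me1 lay mostly on the flanks of H3K4me3 at Cldn3 and Cldn7 and over nearly all of it at Cldn5 and Cldn8. Of the H3K4me3 length in the window, 25.1% in crypts and 35.5% in villi was also called for H3K4me1 at Cldn3, and 48.1% and 33.7% at Cldn7. The share was 69.9% and 70.2% at Cldn15 and 63.9% and 66.5% at Cldn23. At Cldn4 it was 91.4% in crypts and 66.8% in villi. It was highest at Cldn8, with 98.9% and 100%, and at Cldn5, with 100% in both. Cldn12 had no such overlap. Over all genes with H3K4me3, the median share was 55.4% in crypts (quartiles 39.3 and 74.3%) and 52.8% in villi (33.8 and 74.0%).

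The length covered by H3K4me1 had log2 ratios near 0 at 6 of the 7 claudins with both values when all peaks of the window were used. The ratio was 0.03 for Cldn3, -0.01 for Cldn4, 0.11 for Cldn15, 0.14 for Cldn23, 0.00 for Cldn5 and 0.00 for Cldn8. Cldn7 stood apart with -0.47, from 8923 bp in crypts to 6431 bp in villi. Its crypts peak of 4913 bp ran from -4728 to 184 bp relative to the start site that comes first. In villi there were 2 upstream peaks, of 1859 bp and 2323 bp. The nearer, of 2323 bp, ended 513 bp short of that start site. None of the 7 was 1.5-fold higher or lower in villi, which 11.9% and 12.6% of 14443 genes were. This depended on the setting, since the ratio was -1.46 for Cldn7 with 1 kb of flank, and with the top 50% of each list by score it was 0.69 for Cldn3, -1.45 for Cldn4 and -0.55 for Cldn15, so that Cldn7, Cldn3 and Cldn4 then passed 1.5-fold. At Cldn12 the only H3K4me1 peak, 932 bp wide and called in crypts, lay in an intron, 19347 bp from the nearest start site.

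Cldn4 and Cldn3 lie next to each other on chromosome 5 and point away from each other, with 39279 bp and no other coding gene between their start sites. This interval, chr5:134946935-134986213, was covered by 8 H3K4me1 peaks in crypts, over 53.8% of its length, and by 8 in villi, over 61.8%. Its widest H3K4me1 peak was 10579 bp in crypts, ended 3400 bp before the start site of Cldn3 and was among the widest 0.437% of the list. H3K4me3 covered 4.65% of the interval in crypts and 12.6% in villi, and neither H3K27me3 nor H3K9me3 was called there. On the other side of Cldn4, the 29592 bp up to Cldn13, in which Mettl27 lies, were covered by H3K4me1 over 2.96% in crypts and 8.7% in villi. The intervals beside Cldn1 and Cldn8 were nearly empty. Between Cldn1 and Cldn16, a claudin of the kidney, 91293 bp held no peak of the 4 marks, and between Cldn17 and Cldn8 53849 bp held 1 H3K4me1 peak of 1079 bp, in crypts.

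Cldn4 was the only claudin of the 10 with a start-site call in 1 compartment alone. Its H3K27me3 peak was called in crypts at chr5:134945577-134946701, 1125 bp wide, inside the single exon and 233 bp after the start site. The score was 14.0, within the top 56.0% of the crypts list, so the call stood close to the threshold of 10 and was lost when the list was cut to its top 50%. In crypts 68.7% of the H3K4me3 length at Cldn4 was also called for H3K27me3, and in villi none was. A window peak in crypts and none in villi was found at 0.746% of all genes. The villi list is the longer, with 13797 peaks against 7611 in crypts.

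Cldn5 was the only claudin of the 10 with H3K27me3 in both compartments, and its peak was wider and ranked higher than that of Cldn4 in crypts. The peak measured 2924 bp in crypts and 4290 bp in villi, spanned the start site and the whole gene in both, and ranked in the top 4.01% and 2.3% of the lists. The small H3K4me3 peak lay wholly inside it in both compartments. The log2 ratio of H3K27me3 covered length was 0.55, against a median of 0.49 over all 3746 genes with both. It fell short of 1.5-fold higher, which 44.3% of these genes were, while 2.22% were 1.5-fold lower. Start-site peaks of both H3K4me3 and H3K27me3 were found at Cldn4 and Cldn5 in crypts and at Cldn5 in villi, 2 and 1 of 10 genes, beside 6.59% and 7.87% of all genes.

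The endothelial markers bear on Cldn5, since scraped villi and released crypts can hold vessels. Of Pecam1, Cdh5, Kdr and Tek, none had H3K4me3 in the window in crypts and 1 of 4 had it in villi, Kdr, which encodes a VEGF receptor, with 582 bp under H3K4me3. Kdr also had H3K27me3 at its start site in both compartments, over 6468 bp of its window in crypts and 8086 bp in villi. Cdh5, which encodes VE-cadherin, had no peak of any mark. Pecam1 had H3K4me1 alone, with 11 peaks in crypts and 9 in villi, and Tek had 1 H3K4me1 peak, in crypts. Of the immune markers Ptprc and Cd3e, 0 of 2 had start-site H3K4me3 in crypts and 2 of 2 in villi, with 1608 bp and 1181 bp covered. Cd3e also had H3K27me3 at its start site in villi and none in crypts, with 9843 bp of its window covered. Of the mesenchymal markers Col1a1 and Pdgfra, 1 of 2 had start-site H3K4me3 in crypts and 2 of 2 in villi. Both also had start-site H3K27me3 in both compartments, over 3868 bp in crypts and 14846 bp in villi at Col1a1 and over 9416 bp and 14791 bp at Pdgfra. The part of such cells in the claudin values was not tested.

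Cldn1 and Cldn18 had no peak of any of the 8 lists, a state shared by 22.5% of all genes. Cldn1, on chromosome 16 from 26356642 to 26371841, encodes the barrier claudin of the epidermis. Its nearest peak of any list on the side of lower coordinates was an H3K27me3 peak of villi, 250367 bp from the gene. On the other side it was an H3K4me1 peak of crypts, 209012 bp from the gene. Cldn18, on chromosome 9 from 99689461 to 99717267, encodes a claudin of stomach and lung. It had a nearer neighbour, an H3K4me3 peak of crypts at 26859 bp from the gene, and on the other side no peak was closer than 81665 bp.

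The CpG content of the claudin promoters did not follow the order of their H3K4me3. Of all promoters wholly covered by H3K4me3 in villi, the median was 21 CpGs (quartiles 14 and 28, 11257 promoters), and of those not covered it was 3 (1 and 6, 19876 promoters). Cldn3, Cldn4 and Cldn15, covered over 99.3 to 100% in villi, hold 7 to 9 CpGs, and the 2 promoters of Cldn7 hold 7 and 13. In that count they lie between the covered and the uncovered promoters and below the lower quartile of the covered ones. The 3 promoters of Cldn12 hold 24, 20 and 10. The Cldn1 promoter, with 14 CpGs and no peak, holds more than those of Cldn3, Cldn4 and Cldn15 printed above. The 2 Cldn18 promoters hold 8 and 9. The Cldn5 promoter, wholly under H3K27me3 in both compartments, holds 12, and the median of all promoters wholly under H3K27me3 was 14 in either compartment.

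**Figure D4:**
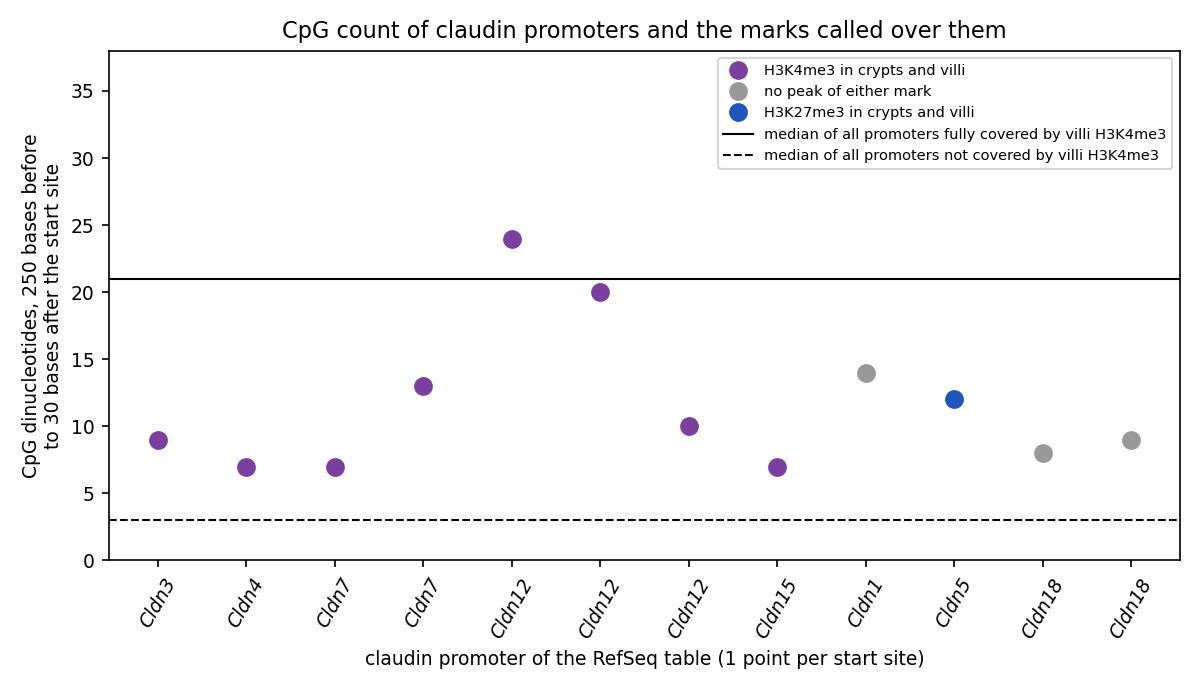
Number of CpG dinucleotides in 12 promoters of 8 claudins (1 point per RefSeq start site, 250 bases before to 30 bases after it), coloured by the marks called over the promoter. The solid line is the median of all promoters fully covered by villi H3K4me3 (21) and the dashed line that of promoters not covered (3). Apart from the Cldn12 promoter with 24 CpGs, the claudin promoters lie between the lines.

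Short motifs were searched on both strands of these promoters. Positions are those of the leftmost base of the match on the strand of the gene. The start site counts as the first base, bases before it are negative, and there is no position 0. GGGCGG, the GC box bound by SP1, was in the promoters of Cldn3 (at -236), Cldn4 (-44 and -5), Cldn15 (-108), Cldn12 (-73), Cldn7 (-6, in the promoter with 13 CpGs), Cldn5 (-45) and Cldn1 (-42 and -14), and in 34.7% of all promoters. CAGGTG, an E-box bound by SNAIL repressors, was in Cldn4 at -14 and 12 and in the Cldn7 promoter with 13 CpGs at -97 and -57, and in 19.1% of all promoters. TATAAA, the TATA box (13.1% of all promoters), TTTATNG, read by CDX factors (10.5%), and CAAAGTCCA, read by HNF4 (0.457%), were in none of the promoters of these 8 genes. None of the matches overlapped another. A match describes letters and not a bound site.

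The claudins outside the chosen 10 had no H3K4me3 at their start sites. Of 14 further claudins of the annotation, none had H3K4me3 within 1 kb of a start site in either compartment, beside 57.7% of all genes in crypts and 57.9% in villi. H3K4me1 was called there at 4 in crypts and 3 in villi, beside 57.9% and 56.1% of all genes. H3K27me3 was called at 3 of 14 in each, beside 13.1% and 16.1%. In the windows, H3K4me3 was called at 4 of the 14 in crypts and 3 in villi, beside 63.2% and 63.5% of all genes. H3K4me1 was called in 6 and 7 windows, beside 69.1% and 68.8%, and H3K27me3 in 5 and 5, beside 17.9% and 23.0%. H3K9me3 was called in 0 and 1, beside 3.89% and 3.11%. The 1 was Cldn14 of inner ear and kidney, with 637 bp in villi. The 3 with H3K27me3 at a start site were Cldn6, an embryonic claudin, Cldn10 of kidney and glands, and Cldn11 of myelin and testis. Their H3K27me3 covered 2607 bp, 2148 bp and 2669 bp of the window in crypts and 3626 bp, 5422 bp and 5291 bp in villi. At Cldn5, by contrast, H3K27me3 and H3K4me3 were called together.

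Cldn2, which encodes the cation pore of crypts, was the further claudin whose start-site calls differed between the compartments. It lies on chromosome X from 139800828 to 139811386. An H3K4me3 peak of 4246 bp was called in crypts, 2311 bp from the nearest annotated start site and running past the end of the gene, and none in villi. H3K4me1 covered 8627 bp of its window in 3 peaks in crypts and 4560 bp in 2 peaks in villi, and only crypts had it at a start site. Chromosome X held 706 H3K4me1 peaks in crypts and 344 in villi, and 436 H3K4me3 peaks in each, and the part of this in the Cldn2 values was not tested.

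The partners of claudins in the junction mostly carried H3K4me3 too. Of 17 genes for occludin, the ZO scaffolds, junctional adhesion molecules and other junction proteins, 16 had start-site H3K4me3 in crypts and 16 in villi, beside 57.7% and 57.9% of all genes. H3K4me1 was there at 16 and 15, beside 57.9% and 56.1%. Epcam, which encodes a membrane partner of claudin-7, had H3K4me1 at its start site in crypts and not in villi, and H3K4me3 in both. H3K27me3 was at the start sites of 3 of 17, Tjp1, Jam2 and Jam3, in both compartments, beside 13.1% and 16.1% of all genes. Jam3, which encodes JAM-C, was the partner without H3K4me3. The median log2 ratio of H3K4me3 covered length was 0.06 for the partners and 0.14 for the 8 claudins with the peak.

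**Figure D5:**
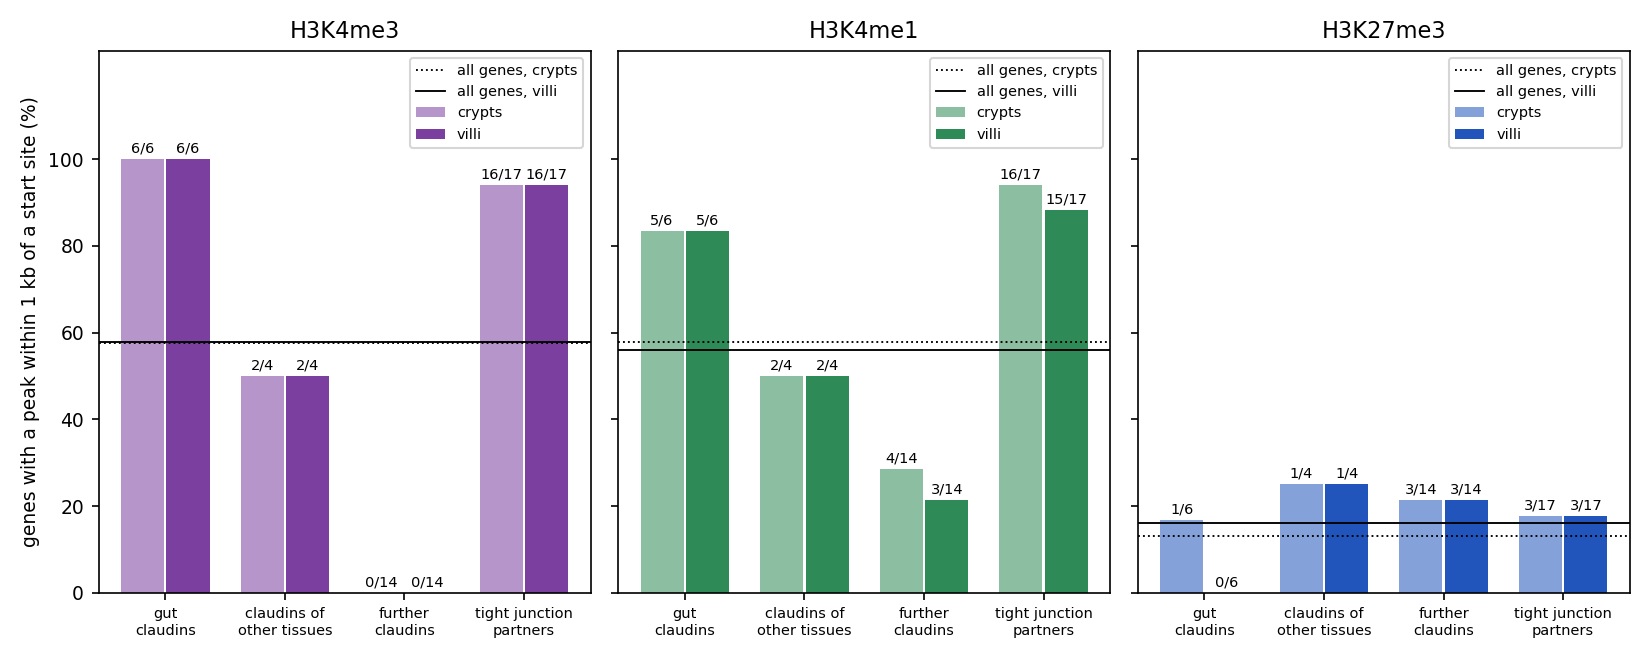
Share of genes, in %, with a peak within 1 kb of a start site for 4 gene lists and 3 marks, with light bars for crypts and dark bars for villi, the counts above the bars and lines for all protein-coding genes. H3K4me3 is at 6 of 6 gut claudins, 2 of 4 claudins of other tissues, 0 of 14 further claudins and 16 of 17 junction partners in both compartments.

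Among 56 genes of the lists compared, the gene most like each claudin was that with the smallest difference in covered share of the window, summed over the 8 lists. Cldn3 and Cldn15 were nearest to each other, at 20.6 percentage points, and Cldn7 was nearest to Cldn3 (25.8). Cldn4 was nearest to Cgn, which encodes cingulin (23.5), Cldn8 to Marveld2, which encodes tricellulin (14.4), and Cldn12 to Sis, which encodes sucrase-isomaltase (8.22). Cldn23 was nearest to Alpi, intestinal alkaline phosphatase (29.0), and Cldn5 to Cldn9, a claudin of the inner ear (26.7). Cldn1 and Cldn18 were tied with each other and 8 more genes without a peak. By presence alone, Cldn3, Cldn7, Cldn8, Cldn15 and Cldn23 shared their pattern over the 8 lists with 41.6% of all genes, Cldn5 with 9.34%, Cldn12 with 1.6% and Cldn4 with 0.513%.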

How the data were processed

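Crypts and villi chromatin was measured in 12 libraries, and 8 peak lists were used here. Reads were mapped by the authors with Bowtie 1.1.2 to the mouse (mm10) and fly (dm6) genomes, duplicates and reads found in both were dropped, and MACS2 2.1.1 called peaks per library at p = 1e-10. The submitters' processing notes also name deepTools 3.1, which the methods use for signal tracks that were not used here. The score per peak deposited by the authors was taken as a −log10 p-value, although it may be a corrected value on that scale. The spike-in does not enter it. Gaps in the numbering of the peaks show that some were removed later, by a step not given in the sources used here. The amounts of chromatin and antibody and the beads differ between labels and methods. The H3K9me2 lists and the inputs were left out.

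From the lists, peaks were joined by at least 1 bp to windows of GENCODE M21 protein-coding genes (GRCm38) with Python 3.11.15, NumPy 2.4.6 and pandas 2.3.3, and the counts were checked with bedtools 2.31.1. Figures were drawn with Matplotlib 3.10.9. In simulated peaks over 4000 windows, all 1500 planted overlaps were found. Members and gene lists were chosen with earlier results of these data known. Named were all 10 members and, of the other lists, genes whose start-site call differed between compartments, with H3K27me3 at a start site, adjacent to a member, or most like a member. Further markers are named to complete their lists, and Fis1 and Cldn14 were named after their peaks were seen. Cldn25 is not in the annotation used. No test was possible between single libraries. Alternatives covered the window, the start-site distance, the overlap rule, the top 50% by score, lists of equal length, merging of peaks under 1 kb apart, and peaks at other genes' start sites.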

Additional observations from a re-analysis of the deposited data

How the results depend on the processing

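Cutting each list to its top 50% by score lowered the number of claudins with H3K4me3 from 8 to 5 in each compartment, in the window and at start sites alike, and that with crypts H3K27me3 from 2 to 1. The lost genes were Cldn4, Cldn5 and Cldn8 for H3K4me3 and Cldn4 for H3K27me3, whose ranks lay below that limit by construction. In the other 114 comparisons of counts and median ratios with an alternative, the value stayed within 1.5 times of that reported. They include the H3K9me3 counts, which were 0 in every setting, so that no ratio exists. They also include the H3K27me3 median ratio, which rests on Cldn5 alone. Among single genes, 81 values stayed within 1.5-fold of that reported and 4 moved further, all H3K4me1 lengths, which reached 0.69 for Cldn3, -1.45 for Cldn4 and -0.55 for Cldn15 with the top 50% and -1.46 for Cldn7 with 1 kb of flank. The cause was not tested. The 81 include H3K4me3 at Cldn4 (0.55) and Cldn7 (0.15) with 1 kb of flank, where both fell below the 1.5-fold that they pass with 5 kb. The alternative of start-site peaks alone was chosen after seeing the data. No paired analysis was possible because each compartment and mark has 1 library. Depth is unknown, so a missing call does not show that a mark is absent.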
